A study of Homo sapiens with 6 samples.

Results

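The comparison set K562 cells that made wild type C/EBPα against K562 cells that made its truncated p30 isoform. K562 is an established human leukemia line with erythroid features, and it makes neither isoform on its own. The CEBPA and P30 cell lines each carry a stably inserted transgene under a tetracycline-inducible promoter, and the CTR line carries the empty vector. All 3 groups received 200 ng/ml doxycycline for 48 h, and each has 2 replicates, so that 4 of the 6 samples of the series enter the comparison. The authors deposited 1 FPKM per gene and group, with the 2 replicates pooled. FPKM is the number of fragments per length of transcript and per depth of the library, so that levels can be read across genes. No error, interval or test can therefore be given for any value, and the files do not give the depth behind it. The wild type messenger RNA can give the full-length protein and p30, and a protein blot of the study names both in the CEBPA line, so that a line with both forms is set against a line with p30 alone. Differences between the separately made lines and those due to the proteins cannot be told apart, and no culture without doxycycline was compared. The members of the comparison were the 13569 of 16843 rows with over 1 FPKM in CEBPA or P30 cells. The change is log2(CEBPA FPKM + 1) minus log2(P30 FPKM + 1), which understates the change of low genes. A gene is called higher or lower at a change of at least 1 in size, or 2-fold on this scale. The CTR level is given beside the values as the background of the same cells without either isoform.

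C/EBPα is a basic leucine zipper transcription factor that drives progenitors of the bone marrow into the granulocyte lineage and stops their division. The p30 isoform starts at an internal start codon of the same messenger RNA, keeps the part that binds DNA and forms dimers, and lacks the N-terminal transactivation region. Mutations that leave mainly p30 are found in acute myeloid leukemia. The levels below are those of bulk cultures, in which more cells of a type and more RNA per cell cannot be told apart.

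Many genes that were at very low levels in P30 cells stood high in CEBPA cells, while the genes that were lower in CEBPA cells were mostly well expressed and differed less. In CEBPA cells 1780 genes were at least 2-fold higher than in P30 cells (13.1% of those compared), and 785 were at least 2-fold lower (5.79%). These shares are the background for the counts of each gene list below. At 4-fold the numbers were 525 (3.87%) and 60 (0.442%), so that the ratio of rises to falls went from 2.27 to 8.75. Of the 525 genes that were 4-fold higher, 345 (65.7%) had at most 1 FPKM in P30 cells. A gene with at most 1 FPKM in P30 cells passed the filter only through its CEBPA level, so that it could only be higher. Of the 1517 such genes 60.7% were 2-fold higher. Among the 60 that were 4-fold lower, 7 (11.7%) had at most 1 FPKM in CEBPA cells. A level over 10 FPKM in CEBPA cells and of at most 1 in P30 cells was found for 144 genes, and the opposite for 2 genes. Among the 7609 genes with a mean of both groups over 10 FPKM, a split chosen after the values were seen, 608 (7.99%) were 2-fold higher and 473 (6.22%) 2-fold lower in CEBPA cells. The median change over all genes was -0.04 and the spread, as the scaled median absolute deviation, was 0.67. The other 11004 genes (81.1%) differed by less than 2-fold. NFKBIA, with 16.1 FPKM in P30 and 33.2 in CEBPA cells, lay just inside the threshold for higher genes, and C2CD5, with 18.7 and 8.87, just outside that for lower genes.

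**Figure D1:**
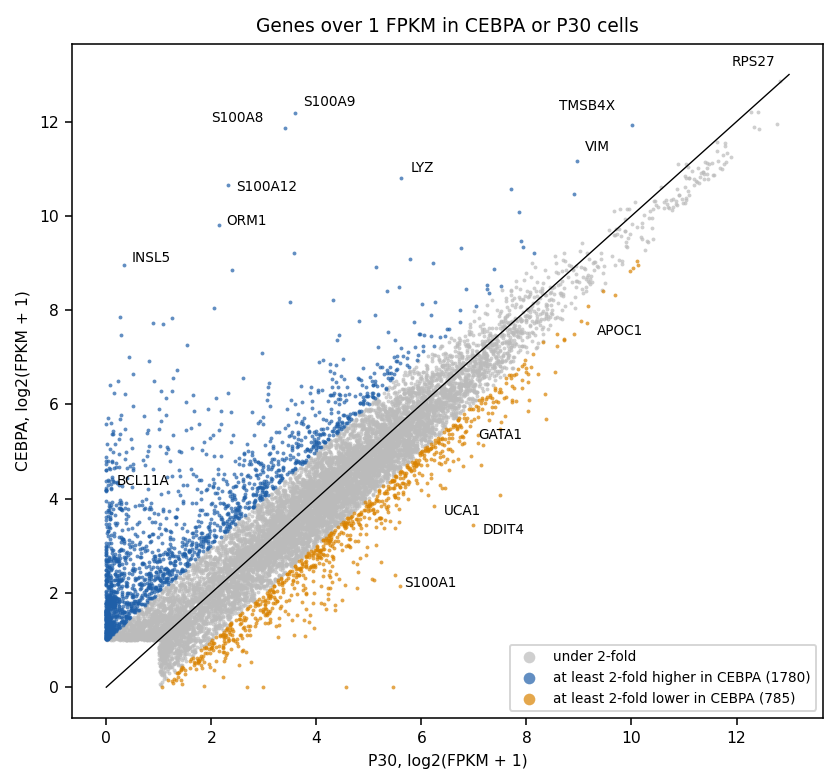
Level of each of the 13569 genes in P30 cells (horizontal axis) and CEBPA cells (vertical axis), both as log2(FPKM + 1), with 1 point per gene, a line of equal levels, and colours for a difference of at least 2-fold. The 1780 higher genes reach far from the line at the low end of the P30 axis, with INSL5, S100A8, S100A9 and S100A12 farthest, and the 785 lower genes run close along it.

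The regions upstream of the genes that stand at the ends of this comparison are shown first, because the isoforms share the same DNA-binding part. INSL5, S100A9, S100A8 and S100A12 were the largest rises and DDIT4 the largest fall, with small RNAs ranked apart. Each line gives the 250 bases before the start of the gene on GRCh37 (hg19, to which the authors aligned), read in the direction of transcription. Capitals mark the letters TTGCNNAA on either strand, the core that C/EBP proteins recognise. The stretches are chr1:67266960-67267209 (minus strand), chr1:153330080-153330329 (plus), chr1:153363550-153363799 (minus), chr1:153348098-153348347 (minus) and chr10:74033428-74033677 (plus), all upstream of the annotated first base of the gene.
INSL5: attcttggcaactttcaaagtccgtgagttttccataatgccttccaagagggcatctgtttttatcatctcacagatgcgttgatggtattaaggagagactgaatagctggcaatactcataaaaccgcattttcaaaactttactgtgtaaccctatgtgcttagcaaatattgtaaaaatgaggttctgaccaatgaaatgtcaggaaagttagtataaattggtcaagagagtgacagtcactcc
S100A9: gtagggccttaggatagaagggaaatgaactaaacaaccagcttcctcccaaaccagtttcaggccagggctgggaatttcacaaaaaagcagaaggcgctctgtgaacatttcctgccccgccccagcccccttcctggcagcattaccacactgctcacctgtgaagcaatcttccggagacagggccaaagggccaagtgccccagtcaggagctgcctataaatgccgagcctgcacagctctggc
S100A8: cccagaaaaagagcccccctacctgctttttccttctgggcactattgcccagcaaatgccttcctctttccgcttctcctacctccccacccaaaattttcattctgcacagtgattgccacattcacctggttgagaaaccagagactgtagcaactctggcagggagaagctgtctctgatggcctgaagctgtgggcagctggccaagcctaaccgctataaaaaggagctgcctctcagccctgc
S100A12: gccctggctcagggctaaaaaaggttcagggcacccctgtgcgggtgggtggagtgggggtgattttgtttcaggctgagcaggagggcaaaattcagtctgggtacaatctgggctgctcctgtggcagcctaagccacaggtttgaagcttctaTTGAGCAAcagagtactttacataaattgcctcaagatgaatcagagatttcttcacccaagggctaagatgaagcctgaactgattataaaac
DDIT4: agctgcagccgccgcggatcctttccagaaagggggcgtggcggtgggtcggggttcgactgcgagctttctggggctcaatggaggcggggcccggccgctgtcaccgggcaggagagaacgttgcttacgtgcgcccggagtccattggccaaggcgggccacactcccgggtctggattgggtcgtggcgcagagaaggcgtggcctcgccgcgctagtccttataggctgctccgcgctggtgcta
Of these 5 only the S100A12 stretch held the core, written there as TTGAGCAA because the match is on the opposite strand. No match says only that these 8 letters are not in these 250 bases.

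Across the genes with a known start, the core was found upstream of 54 of 400 genes that were 4-fold higher in CEBPA cells (13.5%) and of 155 of 1357 that were 2-fold higher (11.4%). It was found for 36 of 700 genes that were 2-fold lower (5.14%), for 4 of 49 that were 4-fold lower (8.16%), for 535 of 9380 that differed by less than 2-fold (5.70%) and for 726 of all 11437 (6.35%). Over all promoters of the annotation the share was 9.92%. Base composition moved with these shares: the median GC content of the 250 bases was 56.6% for the 4-fold higher genes, 65.6% for those under 2-fold and 67.6% for the 2-fold lower ones. Among promoters below the median GC content of 65.2%, the core was found for 53 of 263 of the 4-fold higher genes (20.2%), for 390 of 4503 under 2-fold (8.66%) and for 32 of 283 of the 2-fold lower ones (11.3%). Among the GC-rich promoters the shares were 1 of 137 (0.730%), 145 of 4877 (2.97%) and 4 of 417 (0.959%). These shares describe letters in a window and no binding was measured. Among the 15 largest rises 4 held the core. Among the 15 largest falls of genes without a clone name 1 held it, NNMT, with 16.8 FPKM in P30 and 2.41 in CEBPA cells. The 4 sites of the rises are shown with the bases around them because these genes of granulocytes and secretions are named again below with their levels. They lie at chr1:153348173-153348202 (minus strand), chr11:102595770-102595799 (minus), chr1:158800930-158800959 (plus) and chr20:43883280-43883309 (minus), and their cores begin 94, 103, 200 and 93 bases before the start of the canonical transcript, which for MMP8 lies inside the annotated gene, downstream of its first base.
S100A12: tgaagcttctaTTGAGCAAcagagtacttt
MMP8: acattataaaaTTGCAAAActgtcagagtg
MNDA: ttgaaactcctTTCAGCAAgtatttgtaag
SLPI: acgtttcctgcTTATGCAAtagtagctggg

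The 15 largest rises included genes of granulocyte and acute phase proteins, a hormone, a transporter and a chemokine. INSL5, a relaxin family hormone best known from the colon, measured 0.103 FPKM in CTR cells, 0.269 in P30 cells and 493 in CEBPA cells, a change of 8.60. S100A9 had 0.416, 11.1 and 4623 FPKM, a change of 8.58, and S100A8 0.551, 9.54 and 3731 FPKM, a change of 8.47. These are the subunits of calprotectin, the main calcium-binding protein of the neutrophil cytosol. S100A12, which lies between them on chromosome 1, had 0.221, 4.01 and 1609 FPKM. S100A9 was the gene with rank 4 of all genes by level in CEBPA cells and with rank 7099 in P30 cells. Together the 3 genes made up 1.64% of the summed FPKM in CEBPA cells and 0.00369% in P30 cells. In P30 cells all 3 were above CTR cells, but by FPKM values of about 4 to 11, against over 1600 in CEBPA cells.

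Genes of plasma and other secreted proteins were also among them. ORM1, which encodes the plasma protein orosomucoid, measured 0.178 FPKM in CTR cells, 3.41 in P30 cells and 891 in CEBPA cells, and HP, which encodes the hemoglobin-binding haptoglobin, 0.193, 1.12 and 209 FPKM. ORM2 had 128 FPKM in CEBPA cells and 0.346 in P30 cells. ORM1 and ORM2 are close copies, and how the reads were split between them is uncertain. ARG1, the arginase of neutrophil granules and liver, measured 0.127 FPKM in CTR cells, 4.27 in P30 cells and 460 in CEBPA cells. SLC26A3, an anion exchanger of the gut, had 0.0779, 0.194 and 232 FPKM. TNFAIP6, an inflammation-induced hyaluronan-binding protein, had 0.0227, 0.415 and 99.4 FPKM, and SLPI, an inhibitor of neutrophil elastase, 0.0320, 0.163 and 90.0 FPKM. All of these were below 5 FPKM in P30 cells and above 89 in CEBPA cells.

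By absolute level, 8 genes with at least 2-fold change gained most FPKM, and among them were proteins of the cytoskeleton and of general stress defence. LYZ, the bactericidal lysozyme of granules, went from 47.6 FPKM in P30 to 1781 in CEBPA cells and had 45.5 in CTR cells. TMSB4X, which binds actin monomers, stood at 1036 and 3881 FPKM, and VIM, the intermediate filament protein vimentin, at 497 and 2296. ANXA1, an anti-inflammatory annexin abundant in neutrophils, had 207 and 1521 FPKM, and SOD1, the cytosolic superoxide dismutase, 479 and 1413. These genes were thus already expressed in P30 cells, and their changes were smaller than those of the S100 genes above.

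**Figure D2:**
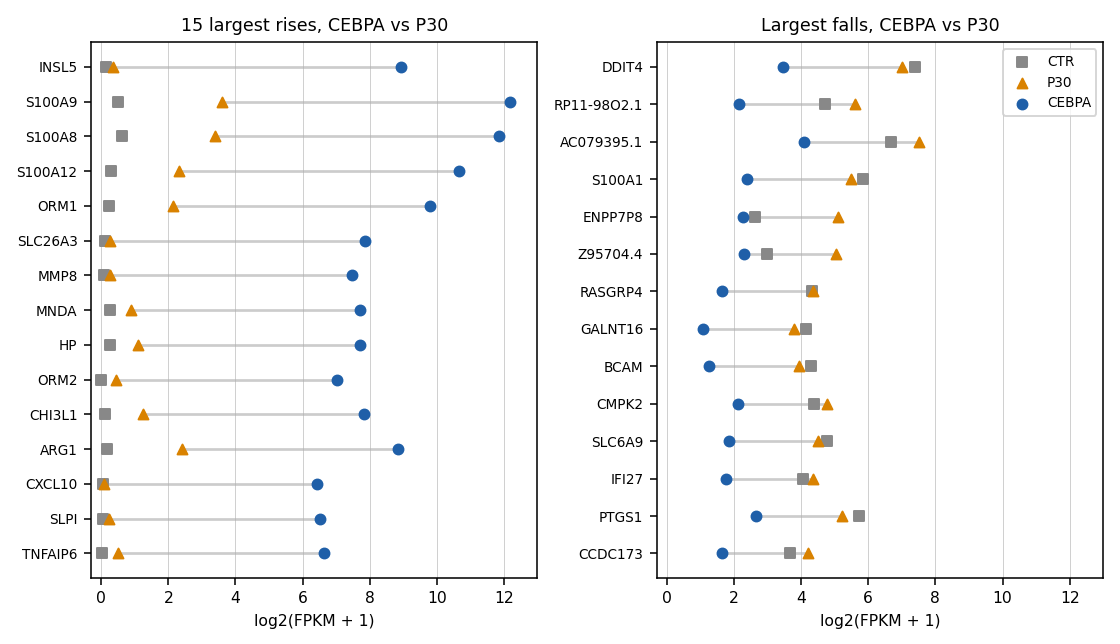
Level in CTR (squares), P30 (triangles) and CEBPA (circles) cells, as log2(FPKM + 1), of the 15 genes with the largest rise (left) and, on the right, 14 of the 15 with the largest fall in CEBPA vs P30, each symbol being 1 pooled value. In all 15 rises CTR and P30 lie at the low end, with P30 of S100A9 at 11.1 FPKM as the highest, and among the falls ENPP7P8 and Z95704.4 have CTR near CEBPA.

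Granule proteins were not raised as one block. Of 22 neutrophil granule genes listed, 16 had a row and 13 passed the filter. Of these 13, 8 were 2-fold higher and none was 2-fold lower in CEBPA cells, with a median change of 1.48, beside -0.04 for all genes. LTF, CAMP, MMP8 and RNASE3, all 2-fold higher, passed the filter only through CEBPA cells and could only be higher. The same holds for EPX, which was not 2-fold higher, with 0.136 FPKM in P30 and 1.12 in CEBPA cells. Over all genes that passed in this way, 60.7% were 2-fold higher. LYZ, LCN2, CHI3L1 and SRGN, also 2-fold higher, were over 1 FPKM in P30 cells. MMP8, the neutrophil collagenase, measured 0.0582 FPKM in CTR cells, 0.211 in P30 cells and 177 in CEBPA cells. CHI3L1, a chitinase-like protein of specific granules, had 0.0705, 1.38 and 227 FPKM, and LCN2, which withholds iron from bacteria, 3.94, 3.16 and 264 FPKM. Among the azurophil and eosinophil granule genes no single direction was seen. RNASE3, an eosinophil ribonuclease, had 0.0234 FPKM in P30 and 1.77 in CEBPA cells. AZU1 (azurocidin) had 4.32 FPKM in P30 and 2.202 in CEBPA cells, and PRTN3 was below 1 FPKM in both. PRG2, the major basic protein of eosinophils, was highest in P30 cells, with 122 FPKM in CTR cells, 717 in P30 cells and 379 in CEBPA cells.

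The phagocyte NADPH oxidase, which makes superoxide in the phagosome, was split by subunit. All 6 listed genes passed the filter, 3 were 2-fold higher and 2 were 2-fold lower. CYBB, the catalytic membrane subunit, had 1.90 FPKM in P30 and 152 in CEBPA cells, while its partner CYBA had 359 and 239 FPKM. The cytosolic subunit NCF1, whose reads may be shared with pseudogene copies, had 0.124 FPKM in P30 and 5.72 in CEBPA cells. NCF4, another cytosolic subunit, went the other way, with 8.78 FPKM in P30 and 1.499 in CEBPA cells. The GTPase RAC2 had 120 and 58.5 FPKM.

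Phagocyte receptors for bacterial and complement peptides were higher in CEBPA cells. Of 16 phagocyte receptor genes listed, 11 passed the filter, 7 were 2-fold higher and 1 was 2-fold lower, with a median of 1.58. All 7 of the 2-fold higher genes passed the filter only through CEBPA cells, so that they could only be higher. Of all genes that passed in this way 60.7% were 2-fold higher. FCGR2A, TYROBP and CD33, the members over 1 FPKM in P30 cells, were all lower in CEBPA cells. MNDA, a nuclear protein of myeloid cells kept in this list, measured 0.201 FPKM in CTR cells, 0.847 in P30 cells and 210 in CEBPA cells. FPR1 and FPR2, which sense formyl peptides, had 0.191 and 0.300 FPKM in P30 cells and 12.99 and 13.9 in CEBPA cells. C5AR1, the receptor of complement C5a, had 0.266 and 7.32 FPKM. CD33, a marker of early myeloid cells, was lower in CEBPA cells, with 38.9 FPKM in P30 and 14.8 in CEBPA cells. FCGR2A stood at 23.2 FPKM in CTR cells, 77.2 in P30 cells and 58.8 in CEBPA cells, so that the isoforms lay close together and above CTR cells. CD14, the monocyte receptor for lipopolysaccharide, had only 1.10 FPKM in CEBPA cells.

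Of 9 leukocyte integrin and adhesion genes with a row, all over the filter, 3 were 2-fold higher and 2 were 2-fold lower. Their median was 0.28, and -0.035 with a filter at 5 FPKM. The 3 that were 2-fold higher, CD44, ITGAL and ITGAX, passed the filter only through CEBPA cells and could only be higher. CD44, the hyaluronan receptor, had 0.823 FPKM in P30 and 10.3 in CEBPA cells. ITGAM, the alpha chain of the complement receptor Mac-1 and a usual marker of granulocytic maturation, measured 2.59 FPKM in CTR cells, 14.3 in P30 cells and 2.43 in CEBPA cells. ITGB2, its beta chain, had 1.39, 20.3 and 39.9 FPKM. The alpha chain was thus highest in P30 cells, and the beta chain was above CTR cells with either isoform. FERMT3, the kindlin that activates leukocyte integrins, had 62.7 FPKM in P30 and 25.3 in CEBPA cells.

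Chemokines and other signals to immune cells were mostly higher in CEBPA cells. Of 15 genes listed, 9 had a row and passed the filter, 7 were 2-fold higher and none was 2-fold lower, with a median of 1.73. Of these 7, IL8, CXCL2, CXCL10, IL1B and TNFSF13B passed the filter only through CEBPA cells and could only be higher. Over all genes that passed in this way, 60.7% were 2-fold higher. IL18 and TNFSF10 were over 1 FPKM in P30 cells. CXCL10, which attracts T cells, measured 0.0280 FPKM in CTR cells, 0.0541 in P30 cells and 84.4 in CEBPA cells. IL8, the main neutrophil attractant, had 0.298, 0.279 and 27.8 FPKM, and TNFSF13B, which sustains B cells, 0.397, 0.190 and 3.86 FPKM. VEGFA was the one member that was lower, with 74.6 FPKM in P30 and 41.2 in CEBPA cells. In the eicosanoid pathway 9 genes passed the filter, 5 were 2-fold higher and 2 were 2-fold lower. HPGD, which inactivates prostaglandins, had 1.37 FPKM in P30 and 77.4 in CEBPA cells, and ALOX5AP, which presents arachidonic acid to 5-lipoxygenase, 1.25 and 16.7 FPKM. The lipoxygenase ALOX5 itself measured 16.9 FPKM in CTR cells, 36.4 in P30 cells and 11.1 in CEBPA cells, and PTGS1, the constitutive cyclooxygenase, 51.8, 36.4 and 5.35 FPKM.

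The 6 known C/EBPα targets named by the study were all higher in CEBPA than in P30 cells, 5 of them 2-fold, and their median change was 1.42. Over all genes 13.1% were 2-fold higher. The study displayed these targets from the same data, so that their direction is no separate evidence. HK3 and IL6R passed the filter only through CEBPA cells and could only be higher. CSF3R, the receptor of the granulocyte growth factor G-CSF, measured 2.91 FPKM in CTR cells, 2.80 in P30 cells and 59.0 in CEBPA cells. IL6R had 0.217, 0.290 and 10.8 FPKM, and HK3, a myeloid hexokinase, was listed at 0 in CTR and had 0.137 and 2.58 FPKM. CEBPE, which encodes the C/EBP protein of late granulocytic stages, had 0.560, 4.31 and 11.2 FPKM, and the repressor GFI1 0.524, 1.84 and 5.09. CSF1R, the M-CSF receptor, had 0.111, 1.54 and 1.79 FPKM and hardly differed between the isoforms. The targets thus fell into genes that were near CTR in P30 cells (CSF3R, IL6R) and genes with a level above CTR in P30 cells (CEBPE, GFI1, CSF1R). Among 8 growth factor receptor genes over the filter, CSF2RB, the common beta chain of the GM-CSF, IL-3 and IL-5 receptors, was the largest fall, with 0.872 FPKM in CTR cells, 6.24 in P30 cells and 1.57 in CEBPA cells.

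Of 11 myeloid transcription factor genes over the filter, 3 were 2-fold higher and none was 2-fold lower, with a median of 0.19. SPI1, which encodes the myeloid master regulator PU.1, measured 41.3 FPKM in CTR cells, 89.4 in P30 cells and 78.2 in CEBPA cells. CEBPB had 29.1, 18.7 and 11.6 FPKM and CEBPD 3.68, 4.54 and 4.76. The genes that were 2-fold higher in CEBPA cells were the immediate early genes FOS, with 1.66 FPKM in P30 and 21.2 in CEBPA cells, EGR1, with 21.8 and 125, and JUNB, with 20.3 and 42.1.

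The erythroid genes, which give K562 its identity, were lower in CEBPA than in P30 cells, and most of their regulators with them. Of 11 erythroid regulators over the filter, 8 were 2-fold lower and 1 was 2-fold higher, with a median of -1.15, beside a background of 5.79% lower and 13.1% higher. GATA1, the master regulator of red cell development, measured 185 FPKM in CTR cells, 193 in P30 cells and 53.1 in CEBPA cells. KLF1, which activates the adult globin program, had 160, 115 and 42.3 FPKM, GFI1B, the erythroid and megakaryocytic repressor, 63.7, 44.2 and 15.4, and EPOR, the erythropoietin receptor, 42.2, 30.8 and 12.9. LMO2, a bridging protein of the GATA1 complex, stayed at 66.6 FPKM in P30 and 59.7 in CEBPA cells. HEMGN measured 59.0 FPKM in CTR cells, 20.2 in P30 cells and 23.0 in CEBPA cells, so that it was low with either isoform. BCL11A, the repressor of fetal globin, was the one member that was 2-fold higher: it measured 0.00750 FPKM in CTR cells, 0.00281 in P30 cells and 17.0 in CEBPA cells.

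Genes of the red cell surface were lower as well. All 14 red cell membrane and blood group genes over the filter were lower in CEBPA cells, 7 of them 2-fold, with a median of -1.15. GYPE, a glycophorin gene with close copies that make its own level uncertain, had 97.9 FPKM in CTR cells, 86.3 in P30 cells and 17.7 in CEBPA cells, and RHCE, which carries the Rh antigens, 88.2, 52.6 and 14.98.

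Heme synthesis was lower along most of the pathway. Of 10 genes over the filter, 5 were 2-fold lower and 1 was 2-fold higher, with a median of -0.94. PPOX, which catalyses the last oxidation before iron is inserted, had 143 FPKM in P30 and 34.3 in CEBPA cells. UROD measured 684 FPKM in CTR cells, 479 in P30 cells and 180 in CEBPA cells, and UROS 92.9, 58.5 and 20.1. At the first step the erythroid enzyme and the housekeeping enzyme parted: ALAS2 had 149, 44.7 and 20.9 FPKM, and ALAS1 16.3, 20.9 and 68.0. Among 8 iron genes TFR2, the erythroid iron sensor, was the only one that was 2-fold lower, with 83.4 FPKM in P30 and 17.6 in CEBPA cells, while the transferrin receptor TFRC had 145 and 134.

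Globin genes were examined by a list of 9, of which 6 had a row. These 6 were lower in CEBPA cells, 2 of them 2-fold, with a median of -0.45. The fetal globin gene HBG1 measured 872 FPKM in CTR cells, 410 in P30 cells and 389 in CEBPA cells, a change of only -0.08 between the isoforms. HBA1 had 110 FPKM in P30 and 24.97 in CEBPA cells and HBA2 54.5 and 46.1, but these encode the same protein from near-identical sequence and their separate levels are uncertain. HBQ1, the theta globin gene, had 46.1 and 16.4 FPKM, and AHSP, the chaperone of alpha globin, 12.95 and 8.13. The list does not hold every globin gene, and not all globin genes outside it were lower.

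**Figure D3:**
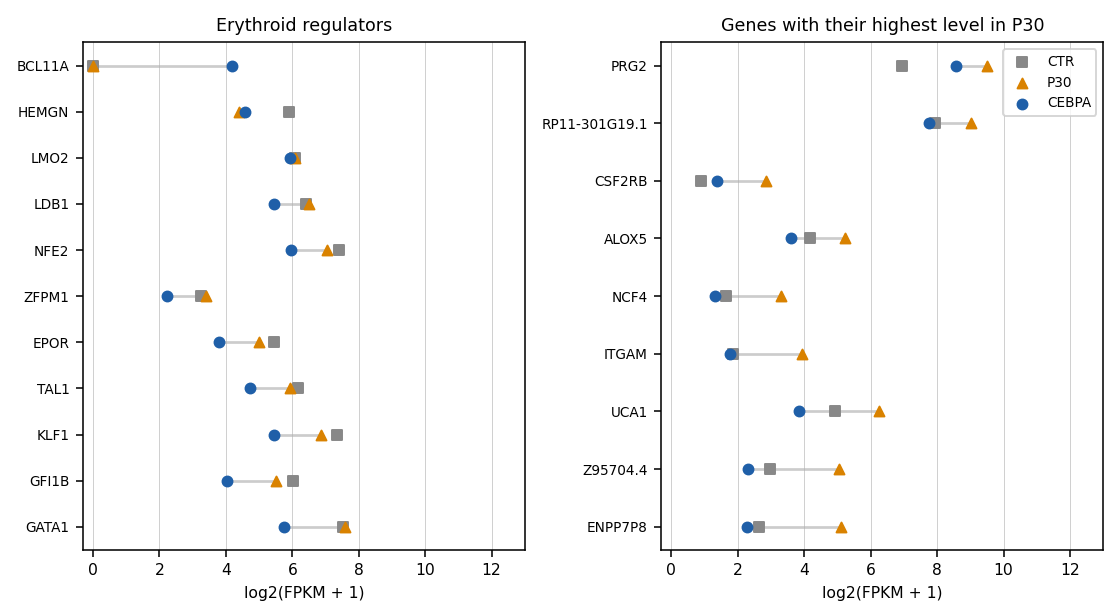
Level in CTR (squares), P30 (triangles) and CEBPA (circles) cells, as log2(FPKM + 1), of the erythroid regulators (left) and of named genes with their highest level in P30 cells (right), each symbol being 1 pooled value. For GATA1, LDB1 and ZFPM1 CTR and P30 lie close together and CEBPA lies lower, BCL11A is above 1 FPKM in CEBPA cells alone, and on the right ITGAM, NCF4 and ENPP7P8 have CEBPA close to CTR.

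The gene with the largest fall, small RNAs left aside, belongs to the stress response. DDIT4, an inhibitor of the growth kinase mTORC1 that is induced by stress, measured 168 FPKM in CTR cells, 126 in P30 cells and 9.90 in CEBPA cells, a change of -3.54. Of 17 integrated stress response genes over the filter, 3 were 2-fold higher and 5 were 2-fold lower, with a median of -0.55. ATF4, the transcription factor of the response, had 383 FPKM in P30 and 179 in CEBPA cells. ATF5 had 82.1 and 25.6 FPKM, and ASNS, asparagine synthetase, 112 and 35.4. DDIT3 and TRIB3, which the same response induces, had 37.96 and 47.3 FPKM in P30 cells and 40.3 and 43.3 in CEBPA cells, and ATF3 was higher, with 6.09 and 27.0. The genes of the response therefore did not move as one.

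Other genes among the 15 largest falls were of several kinds. S100A1, a calcium sensor of the same family as calprotectin, measured 56.4 FPKM in CTR cells, 43.999 in P30 cells and 4.17 in CEBPA cells, a change of -3.12. Of the 8 S100 genes listed, 6 were 2-fold higher, and S100A6, with 24.0 and 8.39 FPKM, was 2-fold lower. BCAM, the Lutheran blood group protein, had 14.4 FPKM in P30 and 1.39 in CEBPA cells, and SLC6A9, a glycine transporter that feeds heme synthesis, 21.5 and 2.61. RASGRP4, an activator of Ras, had 19.6 and 2.09 FPKM. IFI27 and CMPK2, both inducible by interferon, had 19.4 and 26.5 FPKM in P30 cells and 2.35 and 3.31 in CEBPA cells. The transcripts RP11-98O2.1 and AC079395.1, known only by clone names, had 47.3 and 181 FPKM in P30 cells and 3.41 and 16.0 in CEBPA cells. Interferon-stimulated genes as a list had 3 members 2-fold higher and 3 2-fold lower of 15. OAS1, a sensor of double-stranded RNA, was the largest rise among them, with 0.0901 FPKM in P30 and 42.2 in CEBPA cells.

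Most of the listed genes of DNA replication were lower in CEBPA cells. Of 21 replication and nucleotide supply genes, 9 were 2-fold lower and 1 was 2-fold higher, with a median of -0.84. CDT1, which licenses replication origins, had 72.0 FPKM in P30 and 20.6 in CEBPA cells. TYMS, thymidylate synthase, had 112 and 41.3 FPKM and TK1, thymidine kinase, 164 and 64.8. POLA1, the catalytic subunit of the primase-polymerase complex, was the one that was 2-fold higher, with 15.6 and 56.0 FPKM, and RRM1, a subunit of ribonucleotide reductase, had 93.4 and 120.4 FPKM. Among 15 G1 cyclins, kinases and E2F factors 5 were 2-fold lower and none was 2-fold higher, with a median of -0.94. CCND3, a D-type cyclin of G1, measured 183 FPKM in CTR cells, 259 in P30 cells and 99.7 in CEBPA cells, and E2F2 14.1 and 4.86 in P30 and CEBPA cells.

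Of 21 mitosis and spindle genes, 2 were 2-fold lower and none was 2-fold higher, with a median of -0.42. The lower ones were CENPF, with 31.6 and 13.8 FPKM, and AURKB, with 57.8 and 26.2. Over all genes 5.79% were 2-fold lower and 13.1% 2-fold higher, so that this count of lower genes lies near the background. CDK1, the kinase of mitotic entry, had 210 and 156 FPKM, and the spindle kinase AURKA 56.1 and 56.0. Among CDK inhibitors none of 5 was 2-fold higher and CDKN1C, with 8.46 and 2.56 FPKM, was 2-fold lower. CDKN1B, the gene of p27, measured 30.4 FPKM in CTR cells, 32.8 in P30 cells and 21.2 in CEBPA cells, and CDKN1A, the gene of p21, 3.20, 2.69 and 5.82. CDKN1A passes 2-fold with a pseudocount of 0.1. In the list of MYC and ribosome biogenesis genes 1 of 18 was 2-fold lower, the MYC antagonist MXI1, with 16.8 and 7.37 FPKM. This too lies near the 5.79% of all genes.

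**Figure D4:**
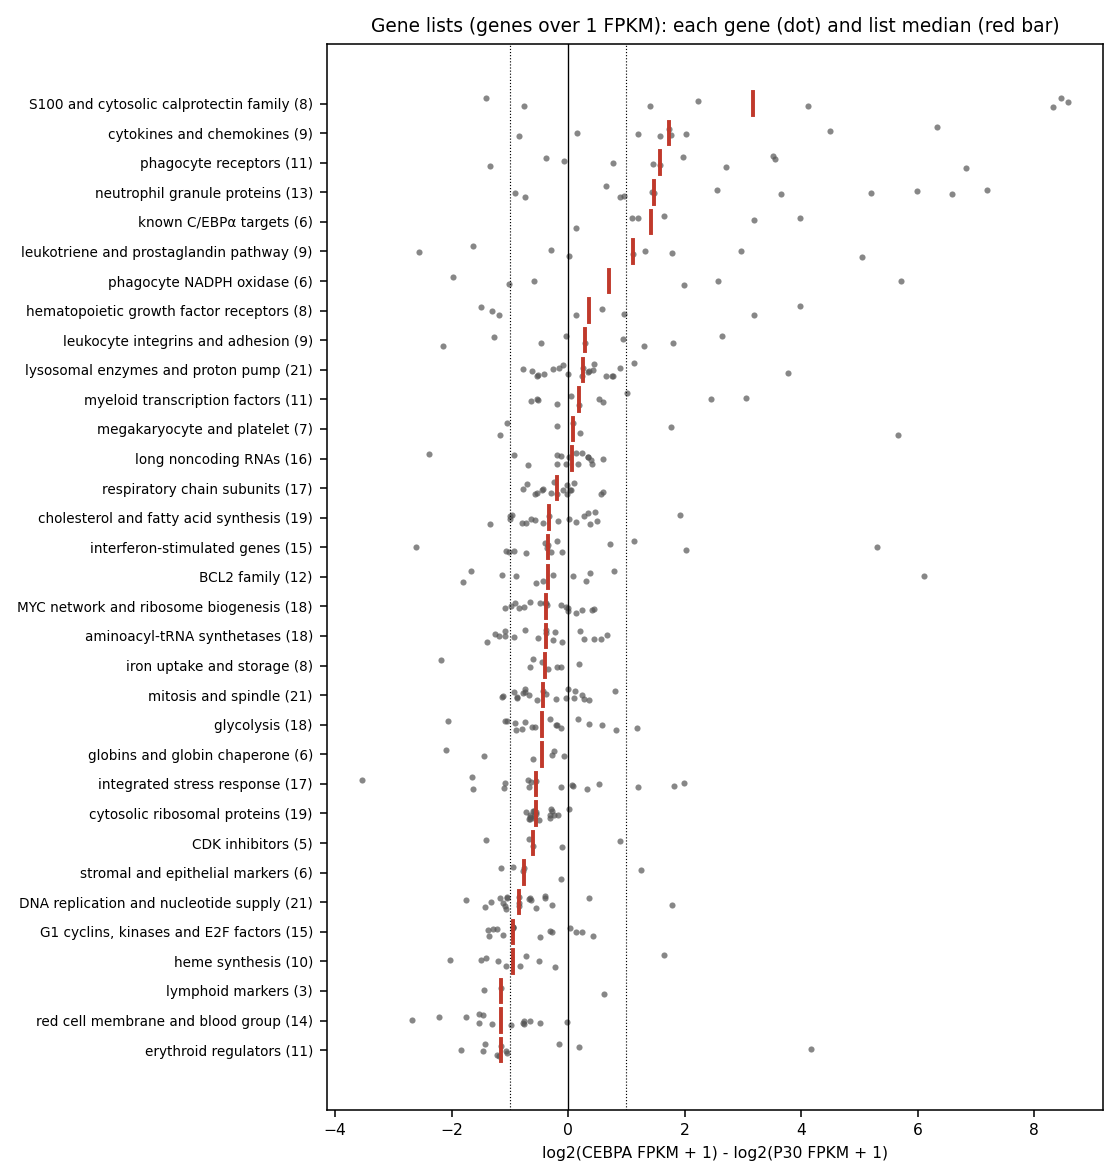
Change of each listed gene over 1 FPKM (dots, spread vertically for sight only) and the median of each list (red bars) as log2(CEBPA FPKM + 1) minus log2(P30 FPKM + 1), with the number of genes in brackets, a solid line at 0 and dotted lines at 2-fold. Lists of phagocyte genes have positive medians, up to 3.18 for the S100 list, and wide spreads, while erythroid and replication lists have medians down to -1.15. Genes that passed the filter only through CEBPA cells could lie only above 0, and several phagocyte lists hold such genes.

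A further set of genes had its highest level in P30 cells. The long noncoding RNA UCA1 measured 29.6 FPKM in CTR cells, 74.9 in P30 cells and 13.5 in CEBPA cells, a change of -2.39 between the isoforms. It was above CTR cells in P30 cells, by 1.31 on the log2 scale, and below them in CEBPA cells, with a difference of -1.08. The myeloid genes ITGAM, NCF4, CSF2RB and ALOX5, given above, were also highest in P30 cells, with CEBPA minus CTR between -0.57 for ALOX5 and 0.46 for CSF2RB. ENPP7P8, a pseudogene, measured 5.20 FPKM in CTR cells, 33.5 in P30 cells and 3.81 in CEBPA cells, and Z95704.4 6.85, 32.1 and 3.94. RP11-301G19.1 had 245, 523 and 216 FPKM. In all of these P30 cells were above both other lines. Of the 16 listed long noncoding RNAs over the filter UCA1 was the only one with a 2-fold difference. The background was 5.79% lower and 13.1% higher, so that 1 lower and 0 higher of 16 show no excess of changes within this list. The list holds only a part of the long noncoding RNAs and says nothing about the class. The study, by its own test, reported many others that differed between these lines. The study had picked UCA1 from the same data, so that its call within this list is no separate evidence. RP11-301G19.1, which is outside the list, also differed by more than 2-fold. NEAT1 had 145 FPKM in P30 and 194 in CEBPA cells, and LINC00152 129 and 67.2.

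Markers of cell types other than those of the bone marrow were examined beside these results. Of 8 lymphoid markers 5 had a row and 3 passed the filter. The summed level of the 5 was 14.97 FPKM in P30 and 8.08 in CEBPA cells, with CD3D at 6.38 and 2.33, CD3E at 0.513 and 0.328 and GNLY listed at 0 in P30 cells and at 0.558 in CEBPA cells. Of 10 stromal and epithelial markers 7 had a row, with a sum of 298 FPKM in P30 and 144 in CEBPA cells, most of it from KRT8, which had 209 and 93.2. DCN, a proteoglycan of connective tissue, was 2-fold higher, with 0.268 and 2.01 FPKM, and the collagen gene COL3A1, below the filter, had 0.0100 and 0.508. KRT8 had 208 FPKM in CTR cells as well, and the part of these markers in the other results was not tested. The red cell genes named above, with HBG1 at 410 FPKM in P30 and 389 in CEBPA cells, show the erythroid features that the label K562 implies in both lines. Of 7 megakaryocyte and platelet genes over the filter 2 were 2-fold higher and 2 were 2-fold lower: GP1BB, a subunit of the platelet von Willebrand factor receptor, had 223 and 99.02 FPKM, and the transcription factor GATA2 51.7 and 24.3. The list's median of 0.08 changed sign to -0.19 with a filter at 5 FPKM. Of the antigen presentation genes only B2M, with 1078 and 1263 FPKM, and CD74, with 2.65 and 0.838, were compared. The granulocyte markers MPO, ELANE and CTSG, among others of the lists, were not analysed here.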

How the data were processed

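RNA-seq libraries came from K562 lines CTR, CEBPA and P30, with 2 replicates per line. In the study's processing, paired reads of stranded libraries were mapped to hg19 by TopHat2 (version 2.0 per the labels), Cufflinks and Gencode gave the transcripts, and Cuffdiff the FPKM that the authors deposited. They deposited 1 FPKM per gene and group, pooled over replicates, which came from separate sequencing runs. The paper describes different instruments, read lengths and places of library preparation for these runs, and depletion of ribosomal RNA for the first alone. The library normalization and the selection of rows are not given in the sources used here. The deposited FPKM do not give read depth per gene or replicate, so no interval or test was computed.

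Rows with over 1 FPKM in CEBPA or P30 cells were compared by the difference of log2(FPKM + 1). A symbol occurs more than once in 87 rows. CTR levels were joined by symbol and by an identical CEBPA or P30 value, for 13507 of the 13569 rows. Genes named are the 15 largest rises and falls, the 8 largest FPKM gains and losses, up to 3 members of each list in each direction, and genes the study names. Small RNAs were ranked apart, and other genes were named after their values were seen. The comparison, its members and the gene lists were chosen with earlier results of these data known. Gene starts were taken from a later Gencode release on GRCh37, for 98.7% of the 11583 genes without a clone name or small RNA name, and symbols were matched through RefSeq synonyms where needed. The alternatives were a pseudocount of 0.1, centring on the median, summed rows of a symbol, no filter and a filter at 5 FPKM. Some listed genes are not reported here by name. The change computation was tested on simulated data. The tools were pandas 2.3.3, numpy 2.4.6 and matplotlib 3.10.9 under Python 3.11.15.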

Additional observations from a re-analysis of the deposited data

How the results depend on the processing

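No paired analysis was possible because both replicates of a line are merged into a single deposited FPKM, and for the same reason no replicate could be left out. As working limits, since no spread is known, 0.25 was used for log2 values and 1.5 times for counts. Of 184 recomputed counts and list medians, 168 stayed within these limits, 14 moved and 2 changed sign. Centring and summing rows moved none of them. Centring subtracts the median of -0.04, which is smaller in size than the limit for log2 values, so that no list median could move. Summing alters only the rows of repeated symbols. With a pseudocount of 0.1, 1197 genes were 4-fold higher and 150 were 4-fold lower, and the medians were 2.46 for the known targets, 3.11 for granule proteins, 3.38 for phagocyte receptors, 2.25 for cytokines and -1.42 for lymphoid markers. Without a filter the granule median was 1.20 and the lymphoid median -0.19. With a filter at 5 FPKM, which removes low genes, 1080 genes were 2-fold higher, and the medians were 2.19 for the known targets, 3.66 for granule proteins, 2.72 for phagocyte receptors and 0.56 for the eicosanoid pathway. Under this filter the median of leukocyte integrins and adhesion changed sign to -0.035 and that of the megakaryocyte list to -0.19, and the lymphoid list kept too few genes for a median. The cause of these moves was not tested. With the pseudocount of 0.1, 58 of 206 recomputed changes of single genes moved, and a pseudocount cannot change a sign. Centring and summing rows could not move these 206, since the shift is below the limit and none of their symbols is repeated. The files do not give depth, so that no precision of low values was computed.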

Other observations

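Some of the higher genes follow each other along the chromosomes when only the compared coding genes are counted. The 10802 coding genes that could be placed on GRCh37 were ordered along the chromosomes, and stretches of at least 3 consecutive compared genes with the same call were listed, a description made after the values were seen. There were 55 such stretches of genes 2-fold higher in CEBPA cells and 10 of genes 2-fold lower, beside 13.1% and 5.79% of all genes called. Many members named below, such as CLEC12A, OLR1, IL8, PPBP, CXCL1 and GBP1, had at most 1 FPKM in P30 cells. They passed the filter only through CEBPA cells and could only be higher. Of all genes that passed in this way 60.7% were 2-fold higher. A neighbour that failed the filter was skipped and could not break a stretch. Whether these numbers of stretches exceed those of a random gene order was not tested. The longest held 6 genes on chromosome 12 from 10103915 to 10375727, in a region of C-type lectin genes. In it CLEC12A, an inhibitory receptor of granulocytes and monocytes, had 0.197 FPKM in P30 and 50.8 in CEBPA cells, and OLR1, a receptor of oxidised lipoprotein, 0.203 and 40.3, whereas CLEC12B and CLEC1A reached only 1.397 and 2.28 FPKM in CEBPA cells. A stretch of 5 chemokine genes on chromosome 4, from 74606236 to 74964913, held IL8, CXCL1, PPBP, CXCL3 and CXCL2. PPBP, a chemokine stored in platelets, had 0.0223 FPKM in P30 and 51.1 in CEBPA cells, CXCL1 0.0568 and 10.8, and CXCL3 1.65 and 15.8. The platelet gene PF4, which belongs to the same family, had 0.449 FPKM in CEBPA cells and was listed at 0 in P30 cells. On chromosome 1, from 89472362 to 89738543, 4 guanylate-binding protein genes were higher: GBP1 had 0.0665 and 17.4 FPKM, GBP5 0.760 and 12.7, GBP2 13.3 and 28.9 and GBP3 0.0946 and 2.26.

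Other gene groups were described in the same way. Of 19 cytosolic ribosomal protein genes 18 were lower in CEBPA than in P30 cells, none of them 2-fold, with a median change of -0.56 and RPS3 as the largest fall, from 3396 to 2052 FPKM. RPS27, the gene with the highest level in both groups, was the exception, with 7291 and 7392 FPKM. Respiratory chain subunits had a median of -0.20 over 17 genes with 0 called. Among 18 glycolytic genes 3 were 2-fold lower, namely ALDOC (80.4 and 18.5 FPKM in P30 and CEBPA cells), TPI1 (578 and 272) and ALDOA (1093 and 527), and HK2 was 2-fold higher (6.84 and 16.7). In the BCL2 family the anti-apoptotic members parted: BCL2A1, a granulocyte survival gene, had 0.747 and 120 FPKM, MCL1 91.5 and 158, and BCL2L1, the erythroid member, 95.6 and 26.7. Lysosomal genes had a median of 0.25 over 21 genes, and CTSS, the cathepsin of antigen-presenting cells, stood out with 34.2 and 484 FPKM. Among 19 cholesterol and fatty acid synthesis genes SC5D was higher, with 18.5 and 72.9 FPKM, and SREBF1, the regulator of fatty acid synthesis, lower, with 71.4 and 27.5. Aminoacyl-tRNA synthetases had 5 of 18 genes 2-fold lower, among them MARS, with 161 and 61.0 FPKM.

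Small RNAs were ranked apart, since most of their extreme values are against a group listed at 0. MIR573, with 46.7 FPKM, and RNU6-101P, with 25.8, were listed at 0 in P30 cells, and a row each of snoU13, with 43.2 FPKM in P30 cells, and U6, with 22.7, were listed at 0 in CEBPA cells.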
